A study of Homo sapiens with 9 samples.

Results

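The nuclear genes of the respiratory chain are the genes of the cell nucleus that encode protein subunits of complexes I to V of the mitochondrial inner membrane. They were picked by symbol, as the rows of the expression table named for a structural subunit (NDUF, SDH, UQCR and CYC1, COX and ATP5 symbols). The rule used no values of the genes, but earlier results of these data were known when the set was chosen. The rule found 76 of 60606 genes, of which 37 belong to complex I, 4 to complex II, 9 to complex III, 11 to complex IV and 15 to complex V. NDUFA4 carries a complex I name but its protein is a subunit of complex IV, and it was counted there. RNA of U87 glioblastoma cells was sequenced before and after selection by radiation, in 3 groups with 3 libraries each. The group U87 is the wild-type parental line, kept in medium with serum. The group GSCs holds glioblastoma stem cells derived from U87, grown without serum in the presence of EGF and bFGF and irradiated repeatedly. The group Diff holds cells differentiated from these GSCs in serum and then picked from clonal colonies, so that its cells share the radiation history of the GSCs and the serum medium of U87. GSCs differ from U87 in derivation, radiation and medium. Diff differs from U87 in radiation, passage through the stem cell state and clonal picking, and from the GSCs in medium, differentiation and clonal picking. Within each comparison these cannot be told apart. All 3 groups come from 1 cell line, and nothing states that the libraries of a group were separate cultures, so that p-values measure only the spread between these libraries.

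Complex I passes electrons from NADH, and complex II from succinate, to ubiquinone. Complex III hands them to cytochrome c and complex IV to oxygen, and complex V, the ATP synthase, uses the proton gradient built on the way to make ATP. The subunits come from both genomes: the mitochondrial DNA encodes a few hydrophobic core proteins, and all other subunits are encoded in the nucleus and imported. Many of the nuclear genes carry sites for NRF1, for the ETS factor GABP and for YY1 near their starts, and the coactivator PGC-1alpha acts with such factors to raise mitochondrial content.

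The stretches before the start of transcription are shown for 1 member of each complex, the called member with a RefSeq promoter window whose log2 fold change in Diff against GSCs was highest. The sequences are from RefSeq (GRCh38.p14), read 5′ to 3′ on the strand of the gene, in lower case, with matches to the 3 motifs in capitals. They lie at chr19:14572067-14572316 (minus strand) for NDUFB7, chr1:17054171-17054282 (minus strand) for SDHB, chr22:29767119-29767368 (plus strand) for UQCR10, chr2:97645812-97646039 (plus strand) for COX5B and chr17:48892537-48892764 (plus strand) for ATP5MC1.
NDUFB7: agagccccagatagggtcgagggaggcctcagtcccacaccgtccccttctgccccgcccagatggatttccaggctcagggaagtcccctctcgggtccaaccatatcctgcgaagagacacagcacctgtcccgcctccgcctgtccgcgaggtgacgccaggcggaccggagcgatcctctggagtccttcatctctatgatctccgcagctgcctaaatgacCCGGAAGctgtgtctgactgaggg
SDHB: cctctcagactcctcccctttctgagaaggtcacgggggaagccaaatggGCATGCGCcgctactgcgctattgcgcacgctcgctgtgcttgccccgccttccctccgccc
UQCR10: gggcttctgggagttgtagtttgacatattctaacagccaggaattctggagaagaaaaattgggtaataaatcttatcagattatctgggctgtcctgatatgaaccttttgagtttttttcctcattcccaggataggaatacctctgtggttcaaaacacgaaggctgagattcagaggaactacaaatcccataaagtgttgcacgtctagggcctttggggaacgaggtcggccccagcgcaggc
COX5B: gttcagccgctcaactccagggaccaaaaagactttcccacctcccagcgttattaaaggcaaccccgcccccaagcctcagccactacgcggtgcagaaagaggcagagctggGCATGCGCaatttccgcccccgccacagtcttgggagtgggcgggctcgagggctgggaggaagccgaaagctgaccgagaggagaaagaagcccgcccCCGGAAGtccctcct
ATP5MC1: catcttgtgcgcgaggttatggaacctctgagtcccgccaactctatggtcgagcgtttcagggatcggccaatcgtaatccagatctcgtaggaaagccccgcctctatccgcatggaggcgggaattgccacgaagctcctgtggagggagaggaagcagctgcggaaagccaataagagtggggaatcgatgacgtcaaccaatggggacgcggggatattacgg
The motifs searched on both strands were GCGCATGC for NRF1, CCGGAAG for ETS factors and AAGATGGC for YY1, and in no window of a member did an ETS match overlap a YY1 match. COX5B held an NRF1 match on the opposite strand and an ETS match, SDHB an NRF1 match, NDUFB7 an ETS match, and the stretches of UQCR10 and ATP5MC1 held none of these letters. A promoter window of 300 bases (250 before and 50 after the start) was matched for 62 of the 76 members. NRF1 letters stood in 21.0% of these windows against 3.05% of all 35116 RefSeq promoters. ETS letters stood in 30.6% against 10.3%, and YY1 letters in 17.7% against 2.89%. At least 1 of the 3 motifs was present in 53.2% of the member windows and in 14.9% of all promoters. Among members called higher in Diff than in GSCs, 50% of 36 windows held a motif, and among those not called 57.7% of 26 did.

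Levels are given as TPM (transcripts per 1000000), which is scaled to gene length and to the library total, and differences as log2 fold changes of log2(TPM + 1). Within groups the libraries correlated at 0.9561 to 0.9709 over genes. Transcripts of the mitochondrial genome took 25.9% to 31.8% of TPM and the noncoding RN7SL1 took 5.73% to 9.79%, with the higher RN7SL1 shares in U87. The stem cell markers PROM1 and SOX2 were under 1 TPM in every library, although both were highest in the GSCs, where SOX2 had 0.809 to 0.994 TPM. MSI1, another listed stem cell marker, did not average over 1 TPM. FABP7 was at 4.38 to 5.82 TPM in the GSCs against at most 0.986 in U87, whereas NES was highest in U87, at 31.1 to 35.5. OLIG2 was at 7.65 to 10.6 TPM in the GSCs and 4.70 to 6.04 in Diff, and its U87 libraries, at 6.71 to 8.33, overlapped the GSCs. Of the neuronal markers, STMN2 was at 0 in every library, DCX reached at most 0.0228 TPM and RBFOX3 at most 0.164. MAP2 was at 20.6 to 22.5 in Diff and under 10 elsewhere. SYN1 was higher in both derived groups, at 6.33 to 9.76 TPM in the GSCs and 5.83 to 6.81 in Diff against 1.12 to 1.5 in U87, and TUBB3, at 3.14 to 5.82 over all libraries, was called in no comparison. Of 8 listed markers of blood and vessel cells, PTPRC, AIF1, CD14, CDH5 and HBB were each under 1 TPM in every library. CD68, VWF and PECAM1 averaged over 1 TPM over the libraries, and VWF reached 11 to 12 TPM in the GSCs. PECAM1, another marker of vessel cells, was at 5.27 to 6.92 TPM in the GSCs and at most 3.75 elsewhere, and the part of these differences in the results was not tested. In bulk RNA, fewer cells of a type and less RNA per cell cannot be told apart.

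All 76 members passed the filter of a mean TPM over 1, and the 3 comparisons below share libraries. A gene was called at a limma adjusted p under 0.05. In Diff against U87, 38 members were higher and 3 were lower, where 18.9% of the 22909 genes tested were called higher and 20.5% lower. The members called higher were 50% of the 76. The median log2 fold change was 0.31 over the members and -0.04 over all tested genes. SDHD and NDUFA4 were the 2 members that also passed a log2 fold change of 1, which 5.92% of all genes did in that direction. Without Diff replicate 2, or without Diff replicate 3, ATP5F1C was the 1 member called lower.

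In GSCs against U87 the members leaned the other way. In that comparison 24 members were lower and 9 were higher, against 23.3% lower and 25.3% higher over all tested genes. The shares among the members were 31.6% lower and 11.8% higher, and their median was -0.13 against 0.02 over all genes. The share called lower is thus nearer to the background than the share called higher in the other comparisons. SDHD alone passed a log2 fold change of 1, against 9.52% of all genes in that direction. Without U87 replicate 1, 5 members were called higher.

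In Diff against GSCs, 45 members were higher and 0 were lower by limma, where 15.0% of all tested genes were called higher and 19.8% lower. At an unadjusted p under 0.05, 50 members were higher and 2 were lower, and without Diff replicate 3 the adjusted call gave 1 lower, NDUFA13. The members called higher were 59.2% of the 76, and the median was 0.42 against -0.06 over all genes. The changes were moderate, since 0 members passed a log2 fold change of 1 and the highest, UQCR10, had 0.91. By group mean, Diff was highest in 56 members and the GSCs were lowest in 52.

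**Figure D1:**
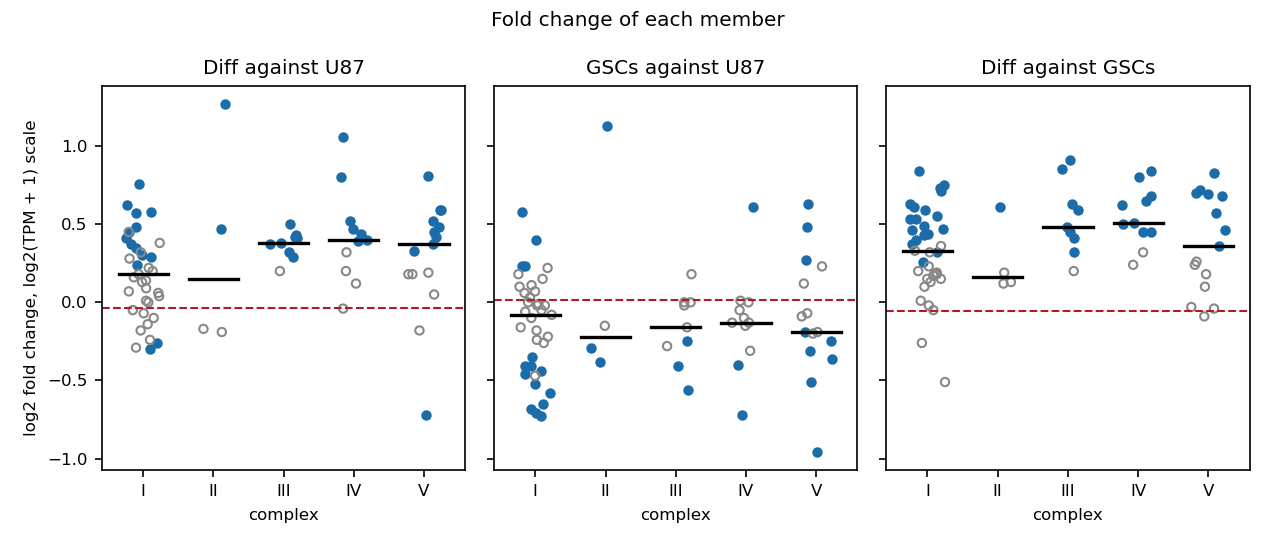
Log2 fold change of each of the 76 members (y axis, log2(TPM + 1) scale) by complex (x axis) in the 3 comparisons; filled points passed a limma adjusted p under 0.05, open points did not, black bars are medians and the dashed line is the median of all tested genes. In Diff against GSCs, 69 of 76 members lie above 0 and the medians of complexes III and IV, 0.48 and 0.51, are the highest.

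**Figure D2:**
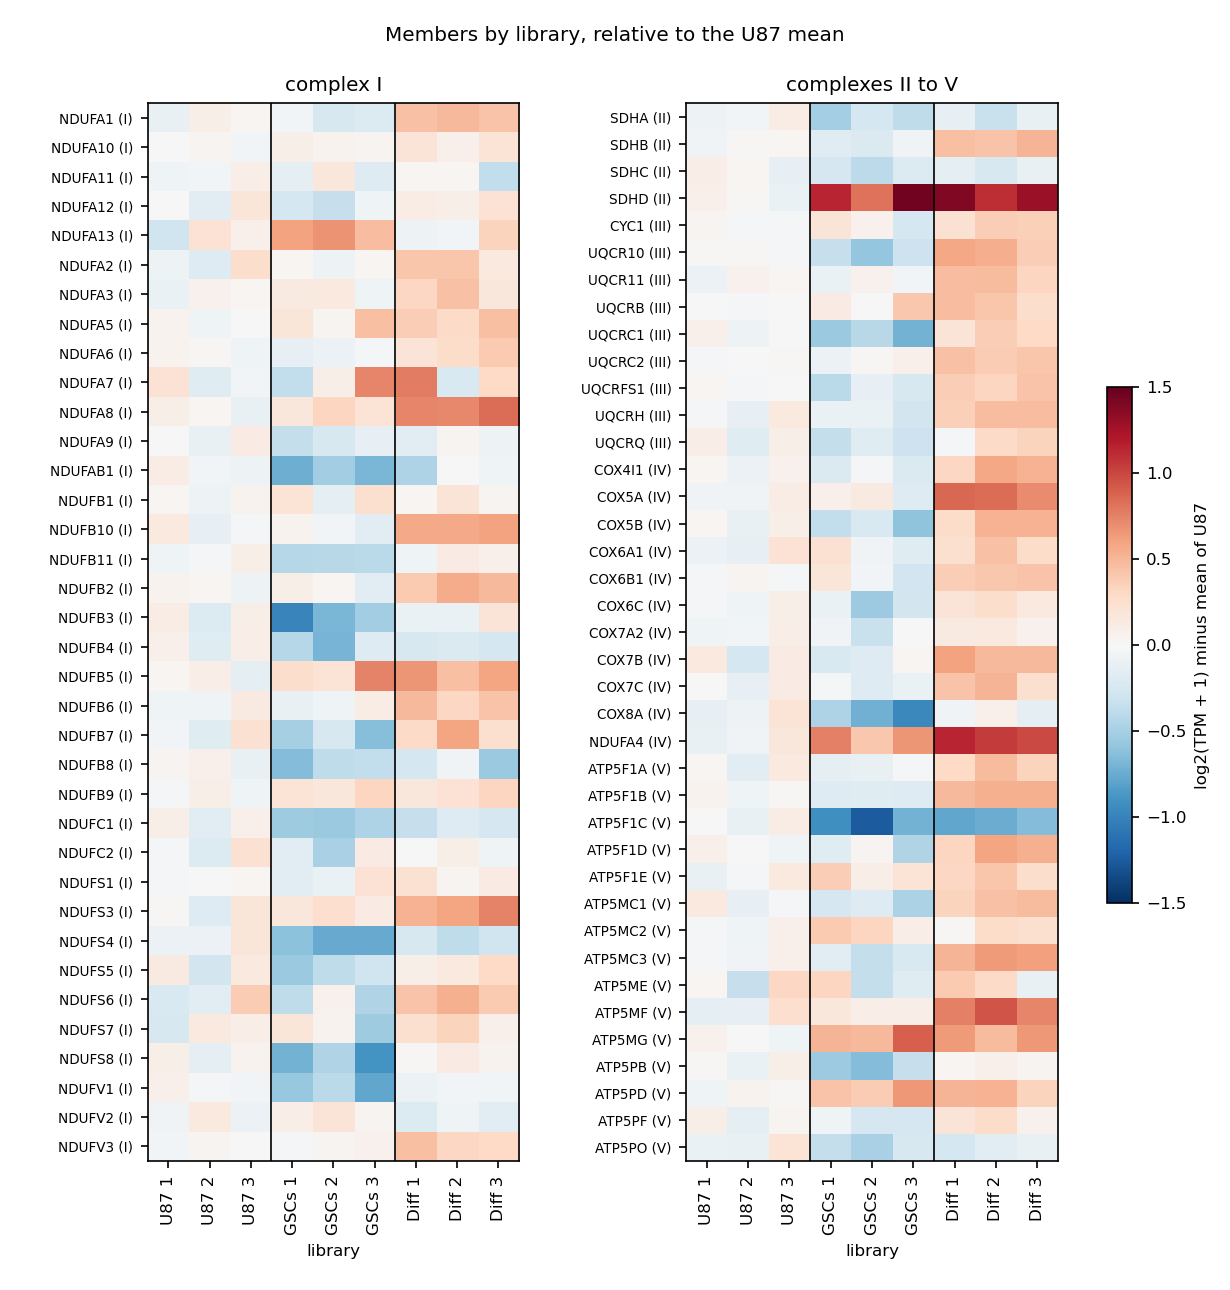
Log2(TPM + 1) of 75 members (rows, complex in brackets) in the 9 libraries (columns), minus the mean of the 3 U87 libraries; red is higher and blue lower. The Diff columns are mostly red, the GSCs columns mixed, with ATP5F1C blue and SDHD red in both.

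Summed over all members, the level was 4180, 4003 and 4308 TPM in U87, 3773, 3676 and 3529 in the GSCs, and 5085, 5355 and 5242 in Diff. The ranges of the 3 groups did not overlap. Diff stood at 1.26 times U87 and 1.43 times the GSCs, and the GSCs at 0.879 times U87. The share of RN7SL1 and mitochondrial transcripts moves with the groups, and when TPM was rescaled without them the ratios were 1.3, 1.49 and 0.869. By complex, Diff against GSCs ran from 1.21 for complex II to 1.5 for complex IV. The libraries of U87 and GSCs overlapped in summed level for complexes II and IV, and the libraries of Diff lay above both other groups in all 5 complexes.

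**Figure D3:**
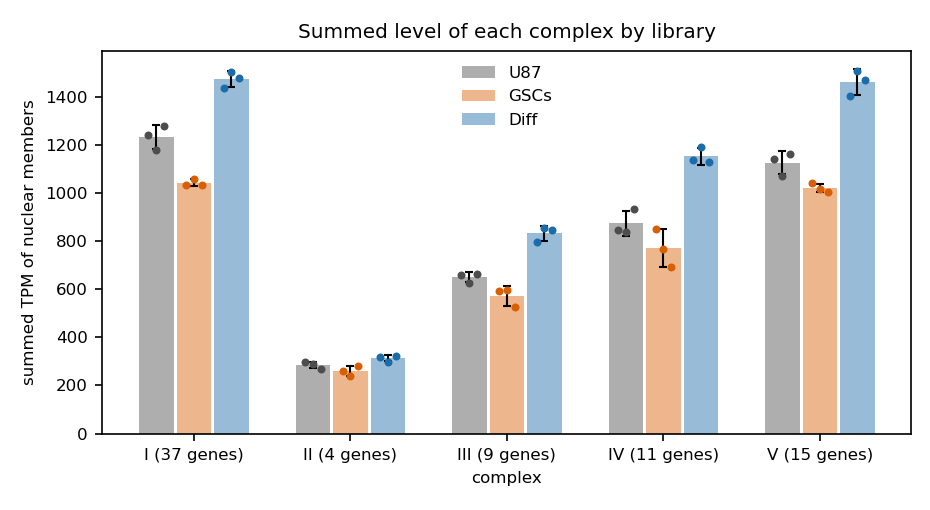
Summed TPM of the nuclear members of each complex (y axis, from 0) by complex (x axis); bars are means and error bars the SD of 3 libraries, points the libraries, grey U87, orange GSCs, blue Diff. The mean of complex V is 1020 TPM in the GSCs and 1460 in Diff.

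Complex I is the largest of the chain. Of its 37 members, 12 were higher and 2 lower in Diff against U87 (32.4% and 5.41%, beside 18.9% and 20.5% of all tested genes). In GSCs against U87, 4 were higher and 11 lower (10.8% and 29.7%, beside 25.3% and 23.3%). In Diff against GSCs, 19 were higher (51.4%, beside 15.0%) and 0 lower (22 and 2 at an unadjusted p under 0.05 by limma). Its core subunits carry the flavin and the iron-sulfur clusters. NDUFS8, which holds iron-sulfur clusters, had 71.6, 60.8 and 69.4 TPM in U87, 40.7, 48.8 and 35.6 in the GSCs, and 67.8, 73.1 and 69.6 in Diff. The GSCs libraries lay below all others, and U87 and Diff overlapped. The log2 fold change was -0.68 ± 0.11 (SE, n = 3 libraries per group, limma adjusted p = 0.000916) in GSCs against U87 and 0.75 ± 0.11 in Diff against GSCs. NDUFV1, which binds the flavin, had 96.6, 90 and 89.2 TPM in U87, 61.5, 69.2 and 53.3 in the GSCs, and 86.7, 89.5 and 89.6 in Diff. It showed the same arrangement, with -0.58 ± 0.09 in GSCs against U87. It was called higher in Diff than in the GSCs, by 0.53 ± 0.09 (limma adjusted p = 0.00181).

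NDUFS3, another core subunit, was higher in Diff than in both other groups. It had 17.4, 14.8 and 19.5 TPM in U87, 19.4, 20.6 and 18.8 in the GSCs, and 25, 26.4 and 29.4 in Diff. Its Diff libraries lay above all others, with a log2 fold change of 0.62 ± 0.10 against U87 (limma adjusted p = 0.00146) and 0.44 ± 0.10 against the GSCs (limma adjusted p = 0.0112). NDUFS1, NDUFV2 and NDUFS7 had no adjusted p under 0.05 in any comparison, although NDUFV2, at -0.26 in Diff against GSCs (limma adjusted p = 0.107), was called lower there with its pseudogenes added (limma adjusted p = 0.0482). NDUFS1 was called higher in Diff against GSCs without GSCs replicate 3 (0.26, limma adjusted p = 0.0121). In Diff against U87 the log2 fold changes of NDUFS1, NDUFV2 and NDUFS7 were 0.13, -0.14 and 0.22.

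Among the 30 accessory subunits of complex I, which surround the core, 11 were higher and 2 lower in Diff than in U87 (36.7% and 6.67%). NDUFA8 had 67.7, 64.9 and 59.1 TPM in U87, 72.1, 79.9 and 73.5 in the GSCs, and 107, 106 and 115 in Diff. No groups overlapped, and the log2 fold change was 0.76 ± 0.07 in Diff against U87 (limma adjusted p = 3.41e-05). NDUFB10 was at 69.0 to 83.4 TPM in U87 and at 112 to 115 in Diff, a log2 fold change of 0.58. The lower members were NDUFS4, which is needed late in the building of the complex, and NDUFC1. NDUFS4 had 38.3, 38.2 and 46.3 TPM in U87, 26.2, 23.8 and 23.8 in the GSCs, and 34.4, 31.2 and 32.9 in Diff. U87 was highest and the GSCs lowest without overlap, with -0.30 ± 0.09 in Diff against U87 and -0.71 ± 0.09 in GSCs against U87. NDUFC1 changed by -0.26 and -0.52 in the same comparisons, and 18.5% of its exon bases are shared with MGARP on the same strand.

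The steepest fall of a complex I member in the GSCs was that of NDUFB3. It had 20.2, 16 and 19.8 TPM in U87, 8.86, 11.2 and 12.6 in the GSCs, and 17.2, 17.3 and 21.4 in Diff. The GSCs lay below both other groups, which overlapped, and the log2 fold change was -0.73 ± 0.14 (limma adjusted p = 0.00287). NDUFB7 was highest in Diff against GSCs within the complex, at 0.84 ± 0.14, with 82.1 to 108 TPM in the GSCs and 152 to 194 in Diff. NDUFAB1, the mitochondrial acyl carrier protein, was at 38.4 to 43.9 TPM in U87 and 23.9 to 27.8 in the GSCs, a log2 fold change of -0.65. The members called higher in the GSCs than in U87 were NDUFA13 (0.58), NDUFB5 (0.40), NDUFA8 (0.23) and NDUFB9 (0.23). NDUFA13 was at 0.891 to 1.70 TPM in U87 and 2.21 to 2.70 in the GSCs, so that its change rests on low values. The remaining calls in Diff against GSCs reached down to 0.37 for NDUFA6, 0.32 for NDUFV3 and 0.26 for NDUFC1.

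Complex II, succinate dehydrogenase, belongs to the citric acid cycle as well and has no subunit encoded in the mitochondrial DNA. SDHA and SDHC were called lower in GSCs against U87 and in no other comparison, whereas SDHD and SDHB each had a pattern of their own. SDHD, which with SDHC anchors the enzyme in the membrane, had 13.5, 13 and 11.9 TPM in U87, 29.4, 23.2 and 36.6 in the GSCs, and 35.1, 28.8 and 32.8 in Diff. U87 lay below both other groups, which overlapped. The log2 fold change was 1.27 ± 0.15 in Diff against U87 (limma adjusted p = 0.000188) and 1.13 ± 0.15 in GSCs against U87 (limma adjusted p = 0.000273), and 0.13 ± 0.15 in Diff against GSCs was not called. SDHC had 203, 194 and 174 TPM in U87, 159, 144 and 164 in the GSCs, and 171, 161 and 176 in Diff. It had -0.29 in GSCs against U87 (limma adjusted p = 0.0119).

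SDHB, the iron-sulfur subunit, had 74.0, 77.8 and 78.6 TPM in U87, 67.7, 66.1 and 74.1 in the GSCs, and 105, 104 and 110 in Diff. Only U87 and GSCs overlapped, and Diff was higher by 0.47 ± 0.06 than U87 and by 0.61 ± 0.06 than the GSCs (limma adjusted p = 0.000214 and 7.64e-05). SDHA, the flavoprotein that oxidizes succinate, was listed at 3.64 to 6.17 TPM over all libraries and was lower in the GSCs than in U87, at -0.38. Its 4 pseudogenes together held 763% of its own TPM, and with their TPM added the log2 fold change was 0.01 and not called.

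In complex III nearly every member was higher in Diff. By limma, 8 of its 9 members were higher and 0 lower in Diff against U87 (88.9% higher, beside 18.9% of all tested genes). In Diff against GSCs 8 were higher and 0 lower (88.9% higher, beside 15.0%). In GSCs against U87 3 were lower and 0 higher (33.3% lower, beside 23.3%), and with 9 genes that share lower is near the background. At an unadjusted p under 0.05 these counts were 8 and 0, 8 and 0, and 4 and 0. UQCR10, a small subunit, had 29.6, 29.6 and 28.8 TPM in U87, 22.8, 19.3 and 23.4 in the GSCs, and 44.2, 43.4 and 38.2 in Diff. No groups overlapped, with 0.50 ± 0.09 for Diff against U87, -0.41 ± 0.09 for GSCs against U87 and 0.91 ± 0.09 for Diff against GSCs (limma adjusted p = 8.68e-05 for the last). UQCRC1, a core protein on the matrix side, had 144, 130 and 137 TPM in U87, 92.6, 102 and 83.3 in the GSCs, and 157, 177 and 168 in Diff. The order was the same and again without overlap, and the GSCs lay -0.56 ± 0.08 from U87.

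UQCRFS1, the Rieske iron-sulfur protein, followed with 65.3 to 68.3 TPM in U87, 50 to 61.2 in the GSCs and 83.9 to 90.1 in Diff. Its log2 fold changes were 0.37, -0.25 and 0.63 in Diff against U87, GSCs against U87 and Diff against GSCs. The core subunits UQCRC2 and CYC1 were not called in GSCs against U87, where both had 0.00, and were higher in Diff than in U87 by 0.41 and 0.32. The main fit and its alternatives, other than the fold threshold, made 19 settings. In Diff against U87, UQCRC2 was called in all 19, UQCRC1 in 15, UQCRB in 12 and CYC1 in 9. In Diff against GSCs, CYC1 was called in 10. CYC1, the cytochrome that passes electrons to cytochrome c, had 205, 197 and 197 TPM in U87, 228, 209 and 166 in the GSCs, and 234, 258 and 257 in Diff. The GSCs libraries spread across the U87 range while those of Diff lay above it. UQCRH and UQCR11 were higher in Diff than in U87 by 0.43 and 0.42, and UQCRQ was called only in Diff against GSCs, at 0.48.

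Of the 11 members of complex IV, cytochrome c oxidase, 7 were higher and 0 lower in Diff against U87 (63.6% higher). In GSCs against U87, 1 was higher and 2 lower (9.09% and 18.2%), and in Diff against GSCs 9 were higher and 0 lower (81.8% higher). The share lower in GSCs against U87 was under the 23.3% of all tested genes. At an unadjusted p under 0.05 by limma, 0 of its members were lower than in U87 or the GSCs in Diff, and 8 and 11 were higher. NDUFA4 had 42.7, 44.4 and 52.0 TPM in U87, 78.7, 61.5 and 73.7 in the GSCs, and 103, 96.3 and 92.9 in Diff. The 3 groups stood apart in that order, with 1.06 ± 0.10 in Diff against U87 and 0.61 ± 0.10 in GSCs against U87 (limma adjusted p = 6.47e-05 and 0.00131). COX5A, which binds on the matrix side, had 90.8, 90.7 and 102 TPM in U87, 99.4, 104 and 82.1 in the GSCs, and 172, 170 and 155 in Diff. U87 and GSCs overlapped and Diff lay above both, by 0.80 ± 0.10 in each comparison.

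COX8A, a small membrane subunit, had 200, 206 and 251 TPM in U87, 158, 132 and 111 in the GSCs, and 210, 230 and 199 in Diff. Here the GSCs lay below the other groups, which overlapped, at -0.72 ± 0.13 against U87 (limma adjusted p = 0.00206). Of its exon bases, 34.5% are annotated on the same strand to AP000721.1 as well. COX5B, the zinc-binding subunit whose promoter stretch is printed above, had 98.6, 89.7 and 103 TPM in U87, 74.7, 82.5 and 63.7 in the GSCs, and 118, 140 and 140 in Diff. No groups overlapped, and its log2 fold changes were 0.44 for Diff against U87, -0.40 for GSCs against U87 and 0.84 for Diff against GSCs. With the TPM of its 7 pseudogenes added, the last 2 were 0.19 and 0.23 and were not called. COX7B, COX6B1 and COX7C were higher in Diff than in U87 by 0.52, 0.40 and 0.39, and COX4I1 by 0.47.

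Complex V had 9 members higher and 1 lower in Diff against U87 (60.0% and 6.67%). In GSCs against U87 it had 3 higher and 6 lower (20.0% and 40.0%, beside 25.3% and 23.3% of all tested genes). In Diff against GSCs 8 were higher (53.3%) and 0 lower (8 and 0 also at an unadjusted p under 0.05 by limma). ATP5F1B, the catalytic beta subunit and the member with the highest level, had 459, 426 and 448 TPM in U87, 389, 393 and 387 in the GSCs, and 623, 641 and 643 in Diff. No groups overlapped, with 0.52 ± 0.04 in Diff against U87 (limma adjusted p = 2.98e-05) and -0.19 ± 0.04 in GSCs against U87 (limma adjusted p = 0.00768). The alpha, delta and epsilon subunits ATP5F1A, ATP5F1D and ATP5F1E were higher in Diff than in U87 by 0.37, 0.48 and 0.33, and none of them was called in GSCs against U87.

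ATP5F1C, the gamma subunit that turns inside the catalytic head, stood apart from the rest of F1. It had 74.3, 69.0 and 80.6 TPM in U87, 38.8, 30.9 and 45.1 in the GSCs, and 43.1, 43.9 and 47.2 in Diff. U87 lay above both other groups, which overlapped, and the log2 fold change was -0.72 ± 0.12 in Diff against U87 and -0.96 ± 0.12 in GSCs against U87 (limma adjusted p = 0.00168 and 0.000242). It had the lowest log2 fold change of all 76 members in both.

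The 3 genes of the c subunit encode one and the same mature protein of the membrane ring. ATP5MC3 had 41.7, 40.6 and 44.7 TPM in U87, 37.6, 32.9 and 36.1 in the GSCs, and 60.6, 66.2 and 65.3 in Diff. ATP5MC1 had 49.8, 41.0 and 43.8, then 37.4, 38.9 and 31.8, then 56.5, 61.2 and 62.4 TPM in the same groups. Both were lowest in the GSCs and highest in Diff without overlap, with 0.83 and 0.72 in Diff against GSCs. ATP5MC2, the most abundant of them, had 109, 106 and 117 TPM in U87, 145, 139 and 119 in the GSCs, and 112, 134 and 131 in Diff. It was higher in the GSCs than in U87, at 0.27, and was not called in Diff against GSCs, at -0.09.

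In the stalk of complex V, ATP5PB was at 95.9 to 110 TPM in U87, 65.1 to 80.8 in the GSCs and 105 to 109 in Diff, a log2 fold change of -0.51 in GSCs against U87. ATP5PD moved the other way, from 33.3 to 36.2 TPM in U87 to 45.8 to 55.1 in the GSCs, at 0.48. ATP5PO was lower in the GSCs, at -0.36, and ATP5PF was called only in Diff against GSCs, at 0.36. ATP5MF, a membrane subunit, was at 39.6 to 52.1 TPM in U87 and 72.7 to 84.6 in Diff, at 0.81, and was not called in GSCs against U87. ATP5MG was higher than in U87 in Diff (0.59) and in the GSCs (0.63), from 1.27 to 1.48 TPM in U87. Its 8 pseudogenes held 501% of its TPM, and with them added neither difference was called.

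Cell lines can gain or lose stretches of chromosomes, and each member was set beside the 25 tested genes on either side. SDHD lies on chromosome 11 (chr11:112086773-112120013, plus strand, GENCODE 29), and the median over its neighbours was 0.55 (Diff against U87) and 0.58 (GSCs against U87). ATP5F1C lies on chromosome 10 (chr10:7788129-7807815, plus strand), where the neighbours had -0.78 and -0.80 and the gene itself -0.72 and -0.96. NDUFA4 lies on chromosome 7 (chr7:10931951-10940256, minus strand), where they had 0.38 in both. The neighbours of ATP5MG on chromosome 11 had 0.49 and 0.63. In each of these the neighbours moved in the direction of the member, and in Diff against GSCs the neighbours of SDHD, ATP5F1C and NDUFA4 had 0.00, -0.04 and -0.09. The part of copy number in these values was not tested.

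ATP5MC3 went against its surroundings. Its neighbours had -0.56 in Diff against U87 and the gene itself 0.59. COX5A and NDUFA8 were at 0.80 and 0.76 where their neighbours had -0.21 and -0.06. Over the 58 members whose neighbours moved by under 0.2 in Diff against U87, 27 were higher and 2 lower, with a median of 0.29. Taken as the difference from its neighbours, the median member stood at 0.28 for Diff against U87, -0.16 for GSCs against U87 and 0.42 for Diff against GSCs. In the last comparison 70 of 76 members lay above their neighbours.

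**Figure D4:**
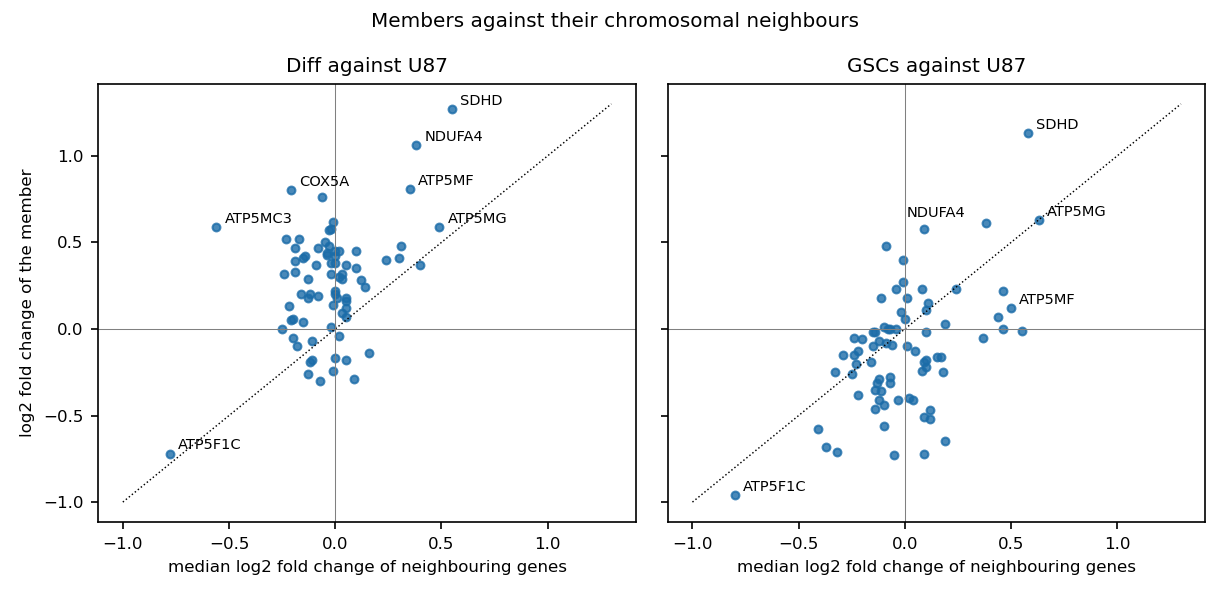
Log2 fold change of each member (y axis) against the median log2 fold change of the 25 tested genes on either side of it (x axis), for Diff against U87 (left) and GSCs against U87 (right); the dotted line marks equal values. ATP5F1C lies at the lower left, at -0.72 with neighbours at -0.78 in the left panel and below the line in the right, at -0.96 with neighbours at -0.80. SDHD lies highest in both panels, with neighbours at 0.55 in the left and 0.58 in the right, where ATP5MG lies further right at 0.63.

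The levels of the members ranged from 1.20 TPM for NDUFB8 to 490 for ATP5F1B as means over all libraries, with a median of 34.2. There were 17 members under 10 TPM, 10 of which share over 5% of their exon bases with another gene on the same strand, against 8 of the other 59. Pseudogenes with the member's own name were listed for 48 members, 174 in all. They held more TPM than the member for NDUFA5, NDUFA9, NDUFB8, SDHA, UQCRB, COX6C and ATP5MG, whose values are uncertain because near-identical copies can share reads. COX6C was called in Diff against GSCs, at 0.51, and had -0.12 with its pseudogenes added. With the pseudogenes added to each member, 33 members were higher and 3 lower in Diff against U87, 7 higher and 21 lower in GSCs against U87, and 43 higher and 1 lower in Diff against GSCs. For the 59 members of 10 TPM or more, the counts were 35 and 3, 7 and 22, and 43 and 0.

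Of the isoforms and partners that the rule left out, 10 were tested, and 5 were higher and 3 lower in Diff against U87. These were 50% and 30%, beside 18.9% and 20.5% of all tested genes. With 10 genes, the share lower is near the background. The log2 fold changes of the 10 ran from -2.27 to 0.84 in Diff against U87, where the members ran from -0.72 to 1.27. They ran from -0.26 to 0.67 in Diff against GSCs, where the members ran from -0.51 to 0.91. NDUFA4L2, a relative of NDUFA4 known to be induced in hypoxia, had 19.3, 17.8 and 20.5 TPM in U87, 2.07, 1.45 and 1.43 in the GSCs, and 2.98, 3.12 and 3.49 in Diff. It was far lower in both derived groups, by a log2 fold change of -2.94 in GSCs against U87 and -2.27 in Diff against U87 (limma adjusted p = 3.29e-07 and 2.2e-06), where NDUFA4 was higher. COX7A1, the isoform of heart and muscle, was at 6.27 to 10.3 TPM in U87 and 3.50 to 3.96 in Diff, at -0.95. COX4I2, COX6A2, COX6B2, COX7B2 and COX8C, isoforms of other tissues, were under 1 TPM in every library. CYCS, cytochrome c itself, had 45.6, 42.4 and 45.5 TPM in U87, 53.0, 48.8 and 65.5 in the GSCs, and 86.4, 73.4 and 82.2 in Diff, a log2 fold change of 0.84 in Diff against U87. ATP5IF1, the inhibitor of ATP synthase, was lower in the GSCs by -0.89 and in Diff by -0.31 against U87. HIGD2A, HIGD1A, ATP5MJ and COX7A2L were higher in Diff than in U87, at 0.63, 0.46, 0.44 and 0.27, and ATP5MK and UQCRHL were not called.

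The 13 chain subunits encoded in the mitochondrial DNA were called in both directions in each comparison. Their median log2 fold change was 0.27 in Diff against U87, with 11 above 0 and 2 below, where the nuclear members had 0.31. In GSCs against U87 and Diff against GSCs it was 0.14 and 0.13, where the nuclear members had -0.13 and 0.42. In Diff against U87 5 were higher and 1 lower (38.5% and 7.69%, beside 18.9% and 20.5% of all tested genes). In GSCs against U87 4 were higher and 2 lower (30.8% and 15.4%, beside 25.3% and 23.3%). In Diff against GSCs 3 were higher and 2 lower (23.1% and 15.4%, beside 15.0% and 19.8%). With 13 genes, the shares in the last 2 comparisons are near those of all tested genes. MT-ND5 and MT-ND6, subunits of complex I, were higher in the GSCs than in U87 by 0.83 and 0.99, and higher in the GSCs than in Diff, where they had -0.37 and -0.46. MT-CO3 and MT-ATP6 were lower in the GSCs than in U87, by -0.80 and -0.63. MT-CYB and MT-ND2 were higher in both derived groups, with 0.43 and 0.47 in Diff against U87, although MT-CYB had -0.09 in GSCs against U87 under quantile normalization. MT-ND3 was higher in Diff than in both other groups. MT-CO1, MT-CO2, MT-ND1, MT-ND4, MT-ND4L and MT-ATP8 were called in no comparison. The summed TPM of all 13 was 257908 to 286709 in U87, 277601 to 304610 in the GSCs and 304962 to 315901 in Diff, and only the U87 and GSCs ranges overlapped.

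Among 19 tested regulators of mitochondrial biogenesis, 8 were higher and 5 lower in Diff than in U87. These were 42.1% and 26.3%, beside 18.9% and 20.5% over all tested genes, so both shares were above those of all genes. PPARGC1A, which encodes PGC-1alpha, had 2.08, 2.31 and 1.70 TPM in U87, 6.07, 6.41 and 8.18 in the GSCs, and 26.7, 22.9 and 24.7 in Diff. The 3 groups were widely apart, with log2 fold changes of 3.09 for Diff against U87, 1.38 for GSCs against U87 and 1.72 for Diff against GSCs (limma adjusted p = 5.15e-07, 3.5e-05 and 2.58e-05). Its relative PPARGC1B was at 4.46 to 6.72 TPM in U87, 10.5 to 11.8 in the GSCs and 15.3 to 16.8 in Diff, and the nuclear receptor ESRRA, a partner of PGC-1alpha, at 11.3 to 16.5, 13.6 to 20.0 and 24.5 to 28.1. PPRC1 was higher in Diff than in U87 by 0.38. From lowest to highest, their means ran U87, GSCs, Diff, an order that 17 of the 76 members had.

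Of the factors whose letters were counted in the promoters, NRF1 and GABPA were called in no comparison, at 0.19 and 0.21 in Diff against U87, and GABPB1 in none either. GABPB2, an alternative partner of GABPA, was lower by -1.87 in the GSCs and -1.27 in Diff against U87, and YY1 was lower in Diff than in U87 by -0.23. Of the genes that copy and transcribe mitochondrial DNA, TFAM, TWNK and SSBP1 were higher in both derived groups than in U87, at 0.44, 0.55 and 0.45 in Diff. MTERF1 was higher in Diff, at 0.42. TEFM was lower in both, TFB1M lower in Diff (-0.46), POLRMT lower in the GSCs (-0.38) and TFB2M higher in Diff than in the GSCs (0.43). POLG2 was higher in the GSCs (0.60) and lower in Diff (-0.40) than in U87, and POLG lower in Diff than in the GSCs (-0.38). ESRRG was under the filter.

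Other genes of the organelle are given as counts, with no test of their difference from the members. Unlike the members, these genes and those of the isoform and regulator lists were not set beside their neighbours. The part of copy number in their values was not tested. Of 53 tested assembly factors of the chain, 17 were higher and 2 lower in Diff against U87, 13 and 11 in GSCs against U87, and 17 and 4 in Diff against GSCs. Those called higher and lower made up 32.1% and 3.77% in Diff against U87, where all tested genes had 18.9% and 20.5%. In GSCs against U87 the shares were 24.5% and 20.8%, near the 25.3% and 23.3% over all tested genes, and in Diff against GSCs they were 32.1% and 7.55% beside 15.0% and 19.8%. TMEM126B and FOXRED1, both of complex I assembly, were higher in Diff than in U87 by 1.05 and 0.84, and COX15, which makes heme A, was higher in the GSCs than in U87 by 0.89. NDUFAF1 and COX20 were lower in both derived groups, at -0.83 and -0.69 in Diff. Of 14 genes of the citric acid cycle, 7 were higher and 1 lower in Diff against U87, led by OGDH (1.00) and MDH2 (0.94), with IDH2 lower (-0.88). These shares were 50% and 7.14%, beside 18.9% and 20.5% of all tested genes. For GSCs against U87 the counts were 4 and 3 (28.6% and 21.4%, beside 25.3% and 23.3%), with FH lower by -1.02. For Diff against GSCs they were 8 and 1 (57.1% and 7.14%, beside 15.0% and 19.8%). Of the chain members, 59.2% were higher in that comparison.

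Of 18 genes of mitochondrial import and the outer membrane, 4 were higher and 2 lower in Diff against U87 (22.2% and 11.1%), with a median log2 fold change of 0.07 where the members had 0.31. For the same genes 0 were higher and 8 lower (44.4%) in GSCs against U87, and 7 higher (38.9%) and 0 lower in Diff against GSCs. By limma at an unadjusted p under 0.05 these were 2 and 9, then 9 and 1. TOMM40 had -0.66 and 0.69 and TIMM23 -0.62 and 0.53 in these comparisons. Of 77 mitochondrial ribosomal protein genes, 16 were higher and 8 lower in Diff against U87 (20.8% and 10.4%, median 0.03). For GSCs against U87 the counts were 10 and 31 (13% and 40.3%, beside 25.3% and 23.3% of all tested genes). Of the chain members, 31.6% were lower in that comparison, so a lean to lower levels in the GSCs was not particular to the chain. For Diff against GSCs the counts were 26 and 4 (33.8% and 5.19%, beside 15.0% and 19.8%). The 82 cytosolic ribosomal protein genes, also short and abundant, had 11 higher and 11 lower in Diff against GSCs (13.4% each). Their median there was 0.02 against 0.42 for the members of the chain. They had 12 higher and 5 lower in Diff against U87 (14.6% and 6.1%), and 17 and 9 in GSCs against U87 (20.7% and 11%).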

How the data were processed

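RNA from 9 libraries of U87, GSCs and Diff cells (3 each) was sequenced by the study. The authors deposited log2(TPM + 1) values, which ran from 0 to 16.6, and back-transformed each library summed to 1000000 TPM. Their labels describe removal of ribosomal RNA and a directional library, while the paper's methods describe oligo(dT) beads. The submitters' processing notes name FastQC 0.11.9, Trimmomatic 0.39, HISAT2 2.2.1, featureCounts 2.0.5, R 4.2.0 and GRCh38, without roles. TPM does not keep read depth, which is therefore unknown, and precision rests on the spread between libraries.

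The 22909 genes whose TPM averaged over 1 entered limma (version 3.58.1, under R 4.3.3), with lmFit and a trended eBayes in 1 model of the 3 groups. Tests were two-sided and Benjamini-Hochberg adjusted within each comparison. Because values carry a pseudocount of 1, fold changes understate those of low genes. In simulated data with the spread of these libraries, 200 of 22909 genes were changed in Diff. At a change of 1 (log2) 118 of them were recovered in Diff against U87, and at 0.4, 11. Far more genes were called in the real comparison, 18.9% higher and 20.5% lower, and the adjusted threshold depends on that share. These rates therefore do not carry over to the data, although small changes can be missed. Members are named if they are among the 3 highest or lowest called in a complex, pass a log2 fold change of 1 or are core subunits, along with the genes of the isoform, regulator and mitochondrial lists and the extremes of the others. Members and lists were chosen with earlier results of these data known, so no list was tested. Positions and shared exons came from GENCODE 29 (57003 of 60606 genes matched). Promoter windows came from RefSeq GRCh38.p14. The cuts of 10 TPM and of 0.2 for neighbours were set after the values were seen. Alternatives covered filter, pseudocount, scaling, variance model, gene length, replicate numbers, left-out libraries and, added after seeing the data, pseudogenes. Python 3.11.15 was used for tables (pandas 2.3.3, numpy 2.4.6) and for plots (matplotlib 3.10.9). For 1 gene, values are not reported here.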

Additional observations from a re-analysis of the deposited data

How the results depend on the processing

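Of the members called, 31 of 41 in Diff against U87, 18 of 33 in GSCs against U87 and 37 of 45 in Diff against GSCs kept their call and direction in every alternative other than the fold threshold. Adding a log2 fold change over 1 to the threshold left 2 higher and 0 lower in Diff against U87, 1 and 0 in GSCs against U87, and 0 higher in Diff against GSCs. The count lower in Diff against U87 was 1 (ATP5F1C) with centring by gene length, with median-ratio scaling and without Diff replicate 2 or Diff replicate 3. The count lower in Diff against GSCs was 1 without a variance trend and without Diff replicate 3 (NDUFA13 in both), and 1 with pseudogenes added (NDUFV2). Without U87 replicate 1, 5 rather than 9 members were higher in GSCs against U87.

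Leaving out 1 library gave 32 to 36 higher, 1 to 3 lower and a median of 0.275 to 0.334 in Diff against U87. It gave 5 to 9, 17 to 24 and -0.171 to -0.07 in GSCs against U87, and 39 to 51, 0 to 1 and 0.392 to 0.431 in Diff against GSCs. Adding pseudogenes reversed SDHA (0.009) and COX5B (0.191) in GSCs against U87 and COX6C (-0.121) in Diff against GSCs. Quantile normalization reversed MT-CYB (-0.091) and MT-ND1 (-0.200) in GSCs against U87. The cause was not tested.

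For libraries with the same number, the correlations of their deviations from the group means ran from -0.042 to 0.049. Not every library correlated best with its own number. No pairing by number was thus seen over all tested genes, although these correlations could miss a pairing that touches few genes. With a replicate block, 35 members were higher and 2 lower in Diff against U87, 6 and 24 in GSCs against U87, and 43 and 0 in Diff against GSCs. TPM holds no counts, so no limit set by depth can be given, and low or shared members are the least certain.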
